A study of Mus musculus with 52 samples.

Results

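The 10 genes described here are classical immediate early genes of the mouse: Fos, Fosb and Fosl1 of the FOS family, Jun and Junb of the JUN family, Egr1 and Egr2 of the EGR family, the small immediate early response genes Ier2 and Ier3, and the stress-induced factor Atf3. They were chosen by symbol, with no measured value in the rule, though with earlier results of these data known. All 10 were found among the 55291 genes of the deposited count table. After a filter on low counts 9 of the 10 were tested, among 25056 genes; Egr2 was not, with 83 reads in all 52 libraries together, at most 8 in any library and 0 in 28 of them. Poly(A) RNA of stem cells and of stem cell aggregates that model the early mouse embryo was sequenced in bulk, in 52 libraries of 25 treatment groups. Each group had 2 libraries, apart from untreated EPSC with 4.

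All cells were labelled wild type (WT). Extended pluripotent stem cells (EPSC) of the line mc6-1/Mu-mClover3-10#, kept in LCDM medium, were the source of every group but a pair. The exceptions were embryonic stem cells (mESC) of the line 2i-0606-td-ES in 2i/L medium, and the same mESC after 2 days in the totipotency medium. A first set of 12 libraries held EPSC (libraries 1 and 2), EPSC after 2 days of the full totipotency medium (S1), and EPSC after 2 days of CHIR-99021 (CHIR, a GSK3 inhibitor that activates Wnt signalling) alone or together with Elvitegravir (an HIV integrase inhibitor), PD0325901 (a MEK inhibitor) or CD1530 (a retinoic acid receptor gamma agonist). The labels do not name the base medium of those CHIR arms. A second set of 40 libraries held EPSC libraries 3 and 4, the mESC groups, EPSC carried in totipotency medium for 25 or 38 passages (P25 and P38), and the aggregates. S2 aggregates were S1 cells after 1 day in a medium called 4C-64C, and S3 were S2 aggregates after 1 more day in it. Both stages were also made without 8Br-cAMP (a cell-permeable cyclic AMP analogue), Birabresib (a BET bromodomain inhibitor), CHIR-99021 or CD1530. S5 aggregates came from a further stage, S4 at day 1, which then spent 3 days on Aggrewell plates in peri-implantation medium, complete or without Activin A, BMP4, FGF4 or XAV939 (a tankyrase inhibitor that dampens Wnt signalling). Each of the 2 sources was 1 cell line, and the labels do not say which S1 cells, early or late passage, formed the S2 aggregates.

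Immediate early genes are transcribed within minutes of a stimulus without new protein synthesis, and their messenger RNAs are short-lived. Growth factor signals reach Fos, Egr1 and Ier2 largely through ERK and the serum response factor, cyclic AMP reaches Fos and Fosb through CREB, and cell stress reaches Jun and Atf3 through JNK and ATF factors. FOS and JUN proteins pair into the AP-1 transcription factor, EGR proteins bind GC-rich sites through zinc fingers, and ATF3 is a bZIP repressor that can pair with JUN. The genes are also known to answer dissociation and medium change.

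Total counts per library ran from 16643188 to 108304781. In 46 of the libraries low counts were mostly even, 66.8 to 80.5% of them, as when both mates of a read pair are counted, while 6 libraries (EPSC 3 and 4, P25, P38) had 40.7 to 42% even; halving the 46 kept all 105 called member results and added 1, Fosb at P25. Levels are given as CPM (a gene's count relative to the library total), scaled by the trimmed mean of M values. A gene was called when the Benjamini-Hochberg adjusted p of edgeR's quasi-likelihood test over all 25056 genes was below 0.05 and the absolute log2 fold change was 1 or more; "rose" and "fell" are used only of such calls. Fold changes are log2 with their standard error (SE). The labels do not tie the 2 libraries of a group to separate cultures, so p-values measure only the spread between these libraries. Statements that groups do not overlap describe the same libraries, mostly for genes already called, and are no further test. The 6 pluripotency markers were detected in every library. Their sums were 3290 and 3380 CPM in EPSC of the first set. In the second set they were 4930 and 4870 CPM in EPSC and 4830 and 4720 CPM in mESC. In bulk RNA, fewer cells of a type and less RNA per cell cannot be told apart. No source used here says whether reads were counted by strand, which matters for Fosl1: 57.2% of its exonic bases are shared with Ccdc85b on the opposite strand, so its level is uncertain, against 7.28% for Jun, 7.52% for Junb and 0 for the other 7.

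The upstream sequences are shown because several of these genes moved together across groups and their control regions are short and well known. Each window is the 250 bases before the RefSeq start (GRCm38.p6, the build of mm10), 5′ to 3′ on the gene's own strand, in lower case with matches to 6 searched motifs in capitals. The windows are chr12:85473640-85473889 (plus strand), chr7:19310046-19310295 (minus), chr4:95052223-95052472 (minus), chr8:84978749-84978998 (minus) and chr1:191183334-191183583 (minus). The Atf3 window lies inside the annotated span of the gene, at a downstream start.
Fos: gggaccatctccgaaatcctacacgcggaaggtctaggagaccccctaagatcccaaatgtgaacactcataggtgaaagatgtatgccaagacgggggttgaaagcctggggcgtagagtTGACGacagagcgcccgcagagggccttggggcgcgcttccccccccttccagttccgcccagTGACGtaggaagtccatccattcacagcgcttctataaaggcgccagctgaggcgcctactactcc
Fosb: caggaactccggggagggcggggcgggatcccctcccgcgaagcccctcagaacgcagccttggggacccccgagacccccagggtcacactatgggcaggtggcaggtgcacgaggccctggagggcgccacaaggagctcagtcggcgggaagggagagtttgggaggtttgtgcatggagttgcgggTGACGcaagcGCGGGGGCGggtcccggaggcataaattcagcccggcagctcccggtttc
Jun: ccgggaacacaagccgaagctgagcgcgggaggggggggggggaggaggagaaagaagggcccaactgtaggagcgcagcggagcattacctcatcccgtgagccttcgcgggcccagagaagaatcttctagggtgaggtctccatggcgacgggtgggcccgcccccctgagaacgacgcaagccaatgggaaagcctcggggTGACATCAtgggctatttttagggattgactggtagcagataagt
Junb: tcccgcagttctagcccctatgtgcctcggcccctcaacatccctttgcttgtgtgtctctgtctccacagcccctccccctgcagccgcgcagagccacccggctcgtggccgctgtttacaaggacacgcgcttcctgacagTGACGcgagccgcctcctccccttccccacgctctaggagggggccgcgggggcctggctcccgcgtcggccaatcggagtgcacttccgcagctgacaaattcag
Atf3: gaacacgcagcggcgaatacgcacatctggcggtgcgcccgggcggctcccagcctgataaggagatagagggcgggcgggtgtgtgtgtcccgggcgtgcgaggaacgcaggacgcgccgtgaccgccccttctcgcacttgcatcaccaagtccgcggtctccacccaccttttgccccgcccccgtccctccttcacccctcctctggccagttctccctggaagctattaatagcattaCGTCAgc
Capitals in the Fos window mark 2 short cyclic AMP response sites, TGACG,, 129 and 66 bases before the start, and in the Fosb window 1 such site at 60 and an EGR site, GCGGGGGCG, at 50 bases before it. The Jun window held TGACATCA 45 bases before the start, the variant AP-1 site that JUN and ATF2 bind. The Junb window had 1 TGACG at 106, and the Atf3 window CGTCA, the same site on the other strand, 7 bases before the start. Searched on both strands over 32851 promoter windows of this length, TGACG occurred in 17.8%, TGACATCA in 2.93%, GCGNGGGCG in 4.7%, the AP-1 site TGANTCA in 6.75%, the full element TGACGTCA in 1.55% and the CArG box of serum response factor in 1.47%; TGACG is part of TGACGTCA. None of the last 3 was found in the 5 windows printed, and sites further upstream than 250 bases were not searched. Windows of Egr2 and Ier3 were searched as well and are not printed. Egr2 windows held CArG boxes, such as CCATATATGG 72 bases before a start, while the Ier3 window had no match. A match is a description of these letters and not of binding.

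In the annotation (GENCODE, mm10) Fos lies at chr12:85473890-85477273, Fosb at chr7:19302696-19310051, Fosl1 at chr19:5447547-5455946, Jun at chr4:95049034-95052222, Junb at chr8:84974484-84978718, Egr1 at chr18:34859823-34864984, Egr2 at chr10:67535475-67542188, Ier2 at chr8:84661331-84662852, Ier3 at chr17:35821684-35822923 and Atf3 at chr1:191170296-191218039. Counts cover exons of the whole gene. Per kilobase of exon, the median level over the 52 libraries was 57.3 CPM per kb for Ier2, 14 for Ier3, 10.5 for Jun, 8.27 for Junb, 4.61 for Atf3, 2.4 for Egr1, 1.61 for Fos, 0.246 for Fosl1 and 0.0694 for Fosb. Ier2 was thus the most abundant member and Fosb, outside a few groups, among the least. The spread across groups had another order: between the highest and the lowest of the 26 group means, with EPSC of each set kept apart, the ratio was 1160 for Egr1, 183 for Fosb, 36.2 for Fos, 21.4 for Ier3, 17.5 for Fosl1, 14.6 for Jun, 12.8 for Junb, 9.99 for Atf3 and 4.93 for Ier2. The lowest means of Egr1 (0.1415 CPM, mESC), Fosl1 (0.1363 CPM, mESC) and Fosb (0.06798 CPM, CHIR with CD1530) lay near the level of 3 counts. That level was 0.0983 and 0.0816 CPM in the mESC libraries and 0.0806 and 0.0617 CPM in those of CHIR with CD1530. The ratios of these genes are therefore imprecise. For Fos, Fosb, Jun and Junb the highest mean lay in the second set and the lowest in the first. Treatment and set cannot be told apart in their ratios. Within untreated EPSC alone, over both sets, Jun ran from 7.1 to 19.3 CPM. When groups are put in order of their mean, most neighbours overlap: 16 of 25 neighbouring pairs for Fos, 13 for Egr1, 18 for Jun and 21 for Atf3 had overlapping libraries.

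**Figure D1:**
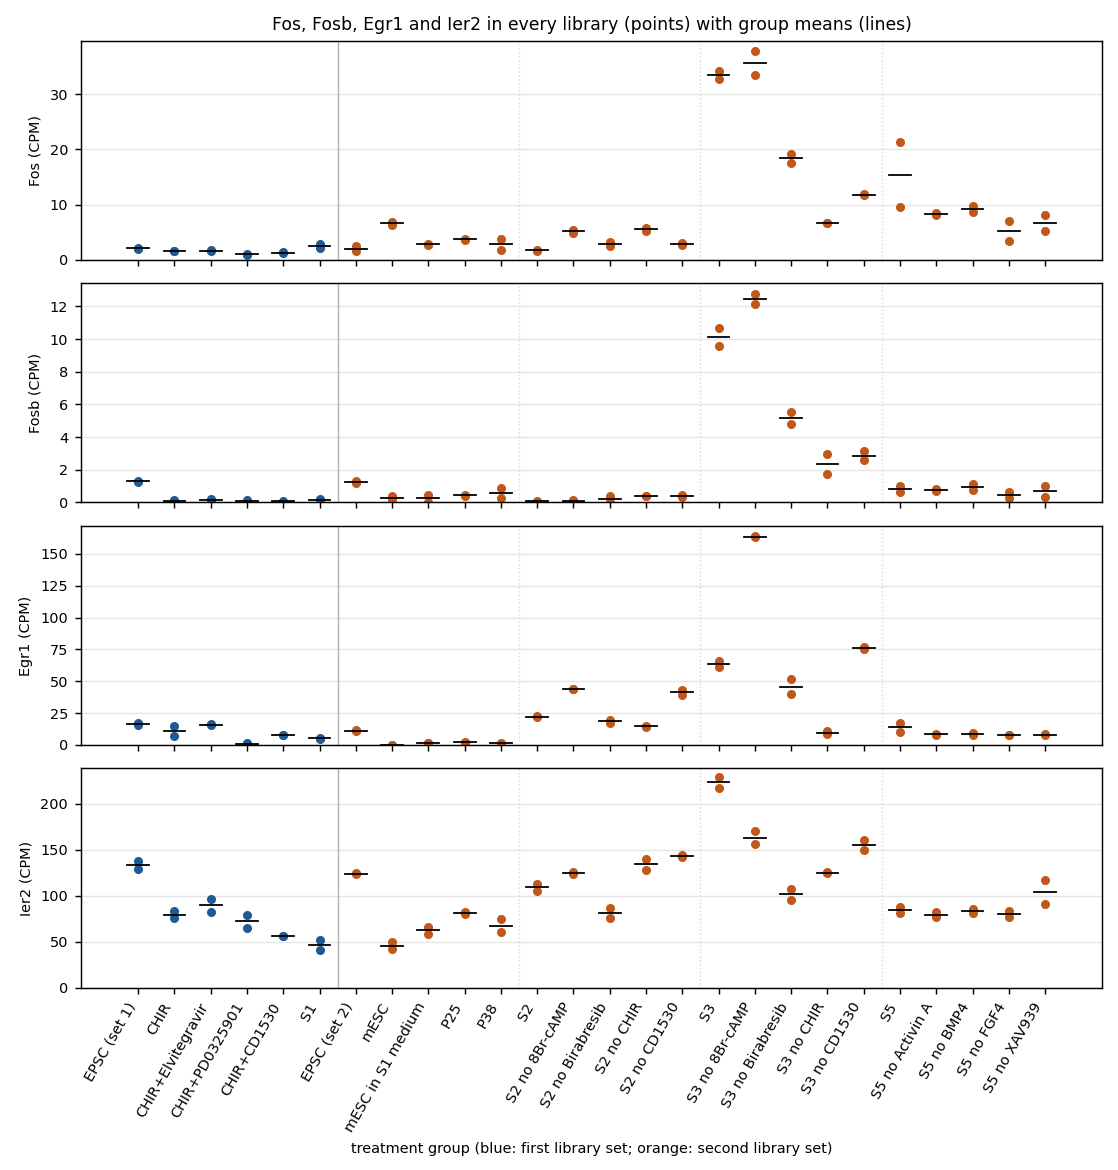
Level of Fos, Fosb, Egr1 and Ier2 (CPM, linear axes from 0) in each of the 52 libraries, by treatment group; points are libraries, lines are group means, blue is the first library set and orange the second. Fos and Fosb reach their highest levels in S3 and in S3 without 8Br-cAMP, where Egr1 stands at 163 and 164 CPM.

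The highest group means of Fos and Fosb were those of S3 aggregates made without 8Br-cAMP and of complete S3, the highest Egr1 levels were in S3 without 8Br-cAMP, and the highest Jun and Atf3 levels in 1 of the 2 complete S5 libraries. Fosl1 was highest in untreated EPSC. Over the 28 planned comparisons Fos was called in 14 (7 rises, 7 falls), Jun in 13 (6 and 7), Egr1 and Atf3 in 12 each (6 and 6, and 5 and 7), Junb in 10 (4 and 6), Fosb in 9 (4 and 5), Ier3 in 7 (4 and 3), Fosl1 in 6 (2 and 4) and Ier2 in 5 (2 and 3). Many of these comparisons share groups, so the counts are not independent.

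**Figure D2:**
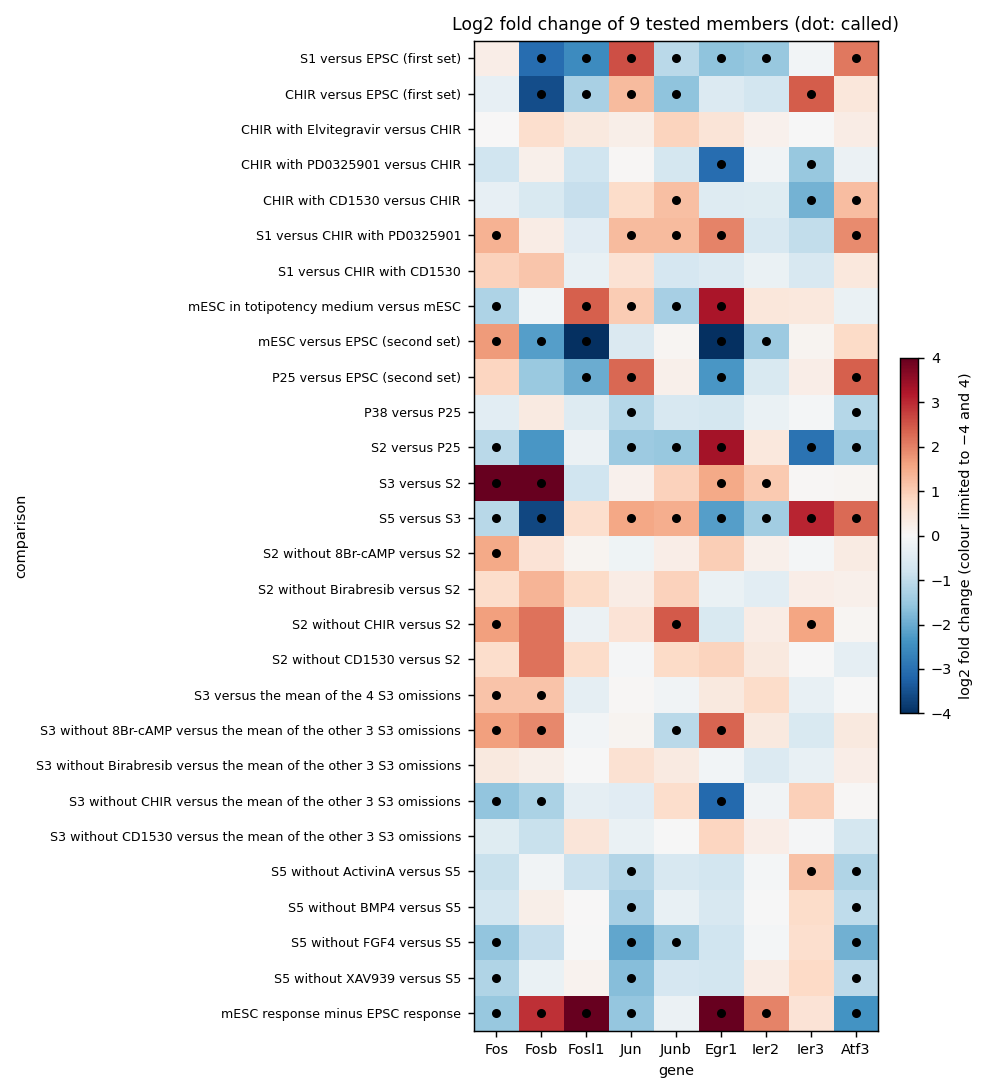
Log2 fold changes of the 9 tested genes (columns) in the 28 planned comparisons (rows); red is higher in the first-named group, blue lower, with colour limited to -4 and 4, and a black dot marks a called gene. Jun and Atf3 (red) are opposite to Fosb and Egr1 (blue) in the row of S1 against EPSC, and Fos and Fosb are darkest in the row of S3 against S2.

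After 2 days of the full totipotency medium, EPSC lost most of their Egr1, Ier2, Fosb and Fosl1 RNA and gained Jun and Atf3. The comparison asks what the medium does to its starting cells. Of the 9 tested genes 7 were called, 2 that rose and 5 that fell, where 27.8% (18.7% up, 9.16% down) of all tested genes were called; the members' median log2 fold change was -1.07 against 0 for all genes.
Jun read 8.19 and 7.09 CPM in EPSC and 48.6 and 42.6 CPM in S1. Its log2 fold change was 2.58 (SE 0.26, adjusted p = 9.81e-11). Atf3 moved with it, from 4.66 and 6.6 CPM to 26.9 and 21.7 CPM, log2 fold change 2.11 (SE 0.21, adjusted p = 7.8e-11). The groups did not overlap for either gene.
Egr1, a zinc finger factor, read 15.5 and 17.1 CPM in EPSC and 5.74 and 4.84 CPM in S1. Its log2 fold change was -1.62 (SE 0.22, adjusted p = 9.82e-08). Ier2, a short nuclear protein of the same early response, fell by 1.52 (SE 0.12, adjusted p = 1.43e-13), from 138 and 129 CPM to 51.8 and 41.1 CPM. Every S1 library lay below both EPSC libraries for these 2 genes.
Within the FOS family, Fosb was 1.29 and 1.28 CPM in EPSC and 0.121 and 0.193 CPM in S1, log2 fold change -3.04 (SE 0.62, adjusted p = 8.33e-05). Fosl1, which codes for FRA-1, fell by 2.51 (SE 0.49, adjusted p = 3.64e-05), from 2.31 and 2.14 CPM to 0.356 and 0.422 CPM. Fos itself, at 2.13 and 2.02 CPM in EPSC and 2.13 and 2.85 CPM in S1, did not pass (log2 fold change 0.25, SE 0.29, adjusted p = 0.555). Junb fell by 1.07 (SE 0.24, adjusted p = 0.000277); it missed the size asked without S1 library 2 (-0.93) and missed the threshold when the first set was fitted alone (adjusted p = 0.063). Ier3, an inhibitor of cell death that is induced by ERK and NF-kB, read 10 and 9.88 CPM in EPSC and 9.65 and 8.74 CPM in S1 and was not called.
Other genes of these pathways were read from lists. Of 11 ERK feedback genes 9 fell in S1 and 0 rose, among them Spry4 (1.64 against 170 CPM, mean of S1 against EPSC; log2 fold change -6.71, SE 0.20) and Etv5 (log2 fold change -3.63, SE 0.10). Of 40 other immediate early genes tested, 16 rose, such as Rhob (210 against 10.9 CPM), and 10 fell, such as Sgk1 (10.8 against 343 CPM). The heat shock genes Hspa1b (89.9 against 8.23 CPM) and Hspa1a (5.74 against 0.198 CPM) rose with Jun and Atf3, while Hsph1 fell, so that 3 of 10 rose and 1 fell. All 7 markers of the 2-cell stage rose, to a sum of 1290 and 1360 CPM from 0 in both EPSC libraries, and 5 of 6 pluripotency markers fell. Trophectoderm markers rose in 6 of 8, from sums of 47.3 and 50 CPM to 1340 and 1010 CPM. The feeder fibroblast markers, of which 2 of 12 rose and 3 fell, summed to 347 and 321 CPM in EPSC and 311 and 335 CPM in S1. Their part in the members' changes was not tested.

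The other arms of the first set held CHIR alone or CHIR with another agent, and no other agent was given alone. With CHIR alone 5 of 9 genes were called against EPSC, 2 that rose and 3 that fell, beside 18.7% (11.7% up, 6.99% down) of all genes. EPSC were in LCDM medium, and the labels do not name the base medium of this arm. CHIR and a change of base medium therefore cannot be told apart. Ier3 rose most, from 10 and 9.88 CPM in EPSC to 57.2 and 48.7 CPM, a log2 fold change of 2.41 (SE 0.18, adjusted p = 1.84e-13). Fosb fell by 3.53 (SE 0.78, adjusted p = 0.000313) to 0.0867 and 0.141 CPM. In these CHIR libraries 3 counts were 0.065 and 0.105 CPM, so the size of that fall is imprecise. Junb fell by 1.62 (SE 0.26, adjusted p = 2.18e-06), and Fosl1 fell by 1.29 (SE 0.48, adjusted p = 0.0299), a call lost without the low-count filter (adjusted p = 0.069) and when CHIR library 2 or either EPSC library was left out (adjusted p 0.066 to 0.2). Jun rose by 1.27 (SE 0.26, adjusted p = 0.000131) to 22.6 and 13.9 CPM, but by 0.49 when all 4 EPSC libraries formed 1 group and by 0.81 without CHIR library 1; neither was called. Egr1 differed by -0.55, and by -1.18 with a call without CHIR library 1. EPSC of the second set had more Jun, 18.2 and 19.3 CPM. Feeder fibroblast markers fell in 8 of 12, to sums of 92.2 and 88.1 CPM from 347 and 321 CPM, and pluripotency markers in 5 of 6; their part was not tested.
The CHIR and CHIR with PD0325901 pairs differed within themselves more than those of any other group: the SD over genes of the log2 difference between libraries was 0.64 and 0.734, against 0.466 for the next group. Junb was 10.3 CPM in the first and 3.87 in the second, and Egr1 was 14.5 and 7.42 CPM. The PD0325901 libraries did likewise, with Junb at 6.17 and 1.94 CPM and Egr1 at 1.61 and 0.697 CPM. 

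Adding PD0325901 to CHIR lowered Egr1 and Ier3. The MEK inhibitor blocks the kinase that activates ERK. Of 9 genes 2 fell and 0 rose, where 4.51% (3.27% up, 1.24% down) of all genes were called. Egr1 fell by 3.06 (SE 0.27, adjusted p = 6.63e-11): both PD0325901 libraries lay below both CHIR libraries. Ier3 fell by 1.53 (SE 0.18, adjusted p = 3.72e-08), to 18.6 and 18.1 CPM, still above EPSC. Fos, at 1.6 and 1.69 CPM with CHIR and 0.885 and 1.08 CPM with PD0325901, did not pass (log2 fold change -0.79, SE 0.35, adjusted p = 0.165), nor did Ier2 (-0.15, SE 0.12). Junb differed by -0.70 (SE 0.27, adjusted p = 0.0899); without CHIR library 1 the sign turned to 0.24, while without CHIR library 2 (-1.21) or PD0325901 library 1 (-1.91) it was called. Endoderm markers fell in 7 of 8, to sums of 395 and 325 CPM from 530 and 389 CPM, and their part was not tested. Of the 11 ERK feedback genes 4 fell, Dusp4, Etv4, Dusp6 and Spry4, and of the 40 other immediate early genes Rhob, Klf2, Klf6 and Ccn2 rose.

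With CD1530 added to CHIR, Atf3 and Junb rose and Ier3 fell. Of 9 genes 2 rose and 1 fell, beside 16.7% (9.74% up, 6.91% down) of all genes. Atf3 rose by 1.22 (SE 0.21, adjusted p = 9.63e-06), from 7.85 and 7.59 CPM to 19.4 and 16.6 CPM, with no overlap. Ier3 fell by 1.89 (SE 0.18, adjusted p = 5.39e-11), to 14.8 and 13.9 CPM. Junb rose by 1.21 (SE 0.26, adjusted p = 0.000176), but by only 0.74 without CHIR library 2, and was not called then or when the first set was fitted alone (adjusted p = 0.053). Jun was 30.2 and 30.6 CPM (log2 fold change 0.73, SE 0.25, adjusted p = 0.0177), a difference under the size asked; without CHIR library 1 it was 1.21 and called. Of 11 ERK feedback genes 8 fell here and 0 rose, although Egr1, at 7.79 and 7.81 CPM, did not pass (-0.51, SE 0.23, adjusted p = 0.078). All 8 endoderm markers rose, to sums of 8630 and 8730 CPM in this arm against 530 and 389 CPM with CHIR; their part was not tested.
With Elvitegravir 0 of 9 genes were called by edgeR's quasi-likelihood test and 0 by DESeq2, where 0.00798% (0.00399% up, 0.00399% down) of all genes were called; 2 members, Junb and Egr1, had an unadjusted p below 0.05. Without CHIR library 1 both were called (log2 fold changes 1.83 and 1.15). 
Set against the arms, S1 had more Fos, Jun, Junb, Egr1 and Atf3 than CHIR with PD0325901: 5 rose and 0 fell, beside 16.7% (10.8% up, 5.94% down) of genes. Egr1 was higher by a log2 of 1.99 (SE 0.26, adjusted p = 8.65e-08) and Atf3 by 1.90 (SE 0.21, adjusted p = 1.48e-09). Junb, higher by 1.25, was at 0.83 and not called without PD0325901 library 2. Ier3 was lower by 1.00 (SE 0.18, adjusted p = 1.55e-05), just under the size asked, and was called with DESeq2 (-1) or without S1 library 1 (-1.07). Against CHIR with CD1530, 0 of 9 genes were called in S1 by edgeR and 0 by DESeq2, beside 11.3% (7.78% up, 3.51% down) of genes, although 7 had an unadjusted p below 0.05. Fos lay at a log2 difference of 0.93 (SE 0.31, adjusted p = 0.0184); it was 1.13 and called without S1 library 1.

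mESC differed from EPSC most in Egr1. The 2i/L medium of mESC contains a MEK inhibitor by its usual recipe, but the labels do not list its contents. Line and medium both differ between mESC and EPSC and cannot be told apart. Of 9 genes 1 rose and 4 fell, beside 19.6% (9.66% up, 9.94% down) of genes. Egr1 read 0.0655 and 0.218 CPM in mESC and 11.8 and 10.8 CPM in EPSC of the second set, log2 fold change -6.22 (SE 0.42, adjusted p = 1.01e-14). In these mESC libraries 3 counts were 0.0983 and 0.0816 CPM, so Egr1 was barely detected and the size of its fall is imprecise. Fosl1 fell by 4.12 (SE 0.61, adjusted p = 6.39e-07) and Ier2 by 1.45 (SE 0.12, adjusted p = 2.09e-12). Fos was higher in mESC, 6.36 and 6.85 CPM against 2.54 and 1.55 CPM, by a log2 of 1.69 (SE 0.32, adjusted p = 4.63e-05). Fosb fell by 2.21 (SE 0.73, adjusted p = 0.0138), a call lost without mESC library 1 (-1.69) or EPSC library 3 (-2.14). Of 11 ERK feedback genes 7 were lower in mESC and 0 higher, with Dusp6 at 2.15 against 97 CPM. Atf3 was not called (0.77, adjusted p = 0.0098) except without EPSC library 3 (1.08). Of 12 feeder fibroblast markers 4 were higher in mESC and 1 lower, with sums of 2380 and 2270 CPM against 859 and 851 CPM, and their part in the levels was not tested.
In totipotency medium for 2 days, mESC gained Egr1 and Fosl1, which fell in EPSC, and lost Fos. Of 9 genes 3 rose and 2 fell, beside 22.5% (14.2% up, 8.26% down) of genes. Egr1 rose to 1.44 and 1.49 CPM (log2 fold change 3.28, SE 0.53, adjusted p = 3.37e-06), and Fosl1 to 0.662 and 0.791 CPM (2.41, SE 0.61, adjusted p = 0.00145). Both rises start from the low mESC levels, so their sizes are imprecise. Fos fell by 1.25 (SE 0.28, adjusted p = 0.000384), to 2.69 and 2.89 CPM. Junb fell by 1.32 (SE 0.25, adjusted p = 3.41e-05). Jun rose by 1.02 (SE 0.25, adjusted p = 0.00112), a size at the threshold that became 0.99 with other size factors or DESeq2 and 0.86 without mESC library 1. All 7 markers of the 2-cell stage and all 8 of trophectoderm rose, to sums of 148 and 156 CPM and of 336 and 331 CPM, and of 8 endoderm markers 4 rose and 1 fell. Pluripotency markers fell in 3 of 6, and of 12 feeder fibroblast markers 2 rose and 5 fell, to sums of 1080 CPM in both libraries. Their part was not tested.
The difference between the responses of the 2 lines was tested directly: 7 of 9 genes passed, 4 with a more positive response in mESC and 3 with a more negative one, beside 18.7% (8.70% up, 9.97% down) of genes. It was 4.90 for Egr1 (SE 0.56, adjusted p = 4.61e-09), 4.92 for Fosl1, 1.98 for Ier2 and 2.92 for Fosb, and -2.39 for Atf3 (SE 0.30, adjusted p = 3.95e-08), -1.56 for Jun and -1.5 for Fos. The value for Fosb was 0.41 (adjusted p = 1) without library 2 of treated mESC, and was not called without S1 library 1 (2.61) or mESC library 1 (2.40) either. The values for Egr1 and Fosl1 also rest on their low levels in untreated mESC. The mESC libraries belong to the second set and S1 to the first, so line and set cannot be told apart.

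Culture in totipotency medium to P25 kept Jun and Atf3 high and Egr1 low, while P38 was not compared with EPSC. At P25, 4 of 9 genes were called against EPSC, 2 each way, beside 18.7% (13.2% up, 5.50% down) of genes. Jun read 92.3 and 92.9 CPM against 18.2 and 19.3 CPM, log2 fold change 2.30 (SE 0.26, adjusted p = 2.59e-09). Atf3 read 23.3 and 24.5 CPM against 5.39 and 3.63 CPM, log2 fold change 2.40 (SE 0.24, adjusted p = 1.05e-10). Egr1 fell by 2.33 (SE 0.30, adjusted p = 5.09e-08), to 2.66 and 1.77 CPM, and Fosl1 fell by 1.98 (SE 0.54, adjusted p = 0.00302). No library of P25 overlapped EPSC in these 4 genes. Of 40 other immediate early genes 17 rose and 4 fell; of 10 heat shock genes Hspa1a, Bag3 and Hspa1b rose and 0 fell; of 11 ERK feedback genes 6 fell. Fos (0.87, adjusted p = 0.0504) was called only without EPSC library 3 (1.26), and Fosb (-1.49, adjusted p = 0.119) only with halved counts or no low-count filter (adjusted p 0.035 and 0.026). Feeder fibroblast markers, 2 of 12 higher and 2 lower, summed to 1350 and 1340 CPM at P25 against 859 and 851 CPM. All 7 markers of the 2-cell stage rose, to sums of 243 and 246 CPM from 0.108 and 0.16 CPM, and 6 of 8 trophectoderm markers, to 973 and 1010 CPM from 106 and 110 CPM. Of 8 endoderm markers 6 rose and 1 fell, and 4 of 6 pluripotency markers fell. Their part was not tested.
From P25 to P38 both genes that had risen, Jun and Atf3, fell. Jun fell by 1.15 (SE 0.24, adjusted p = 0.0047), to 38.3 and 45 CPM, and Atf3 fell by 1.13 (SE 0.21, adjusted p = 0.00143), to 11 and 10.8 CPM; they were 2 of 9 genes called, beside 0.339% (0.0319% up, 0.307% down) of all genes. The call for Jun was lost without P25 library 1 (adjusted p = 0.052) or P38 library 1 (adjusted p = 0.13). Of the feeder fibroblast markers 2 of 12 fell, to sums of 466 and 773 CPM, and their part was not tested.

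**Figure D3:**
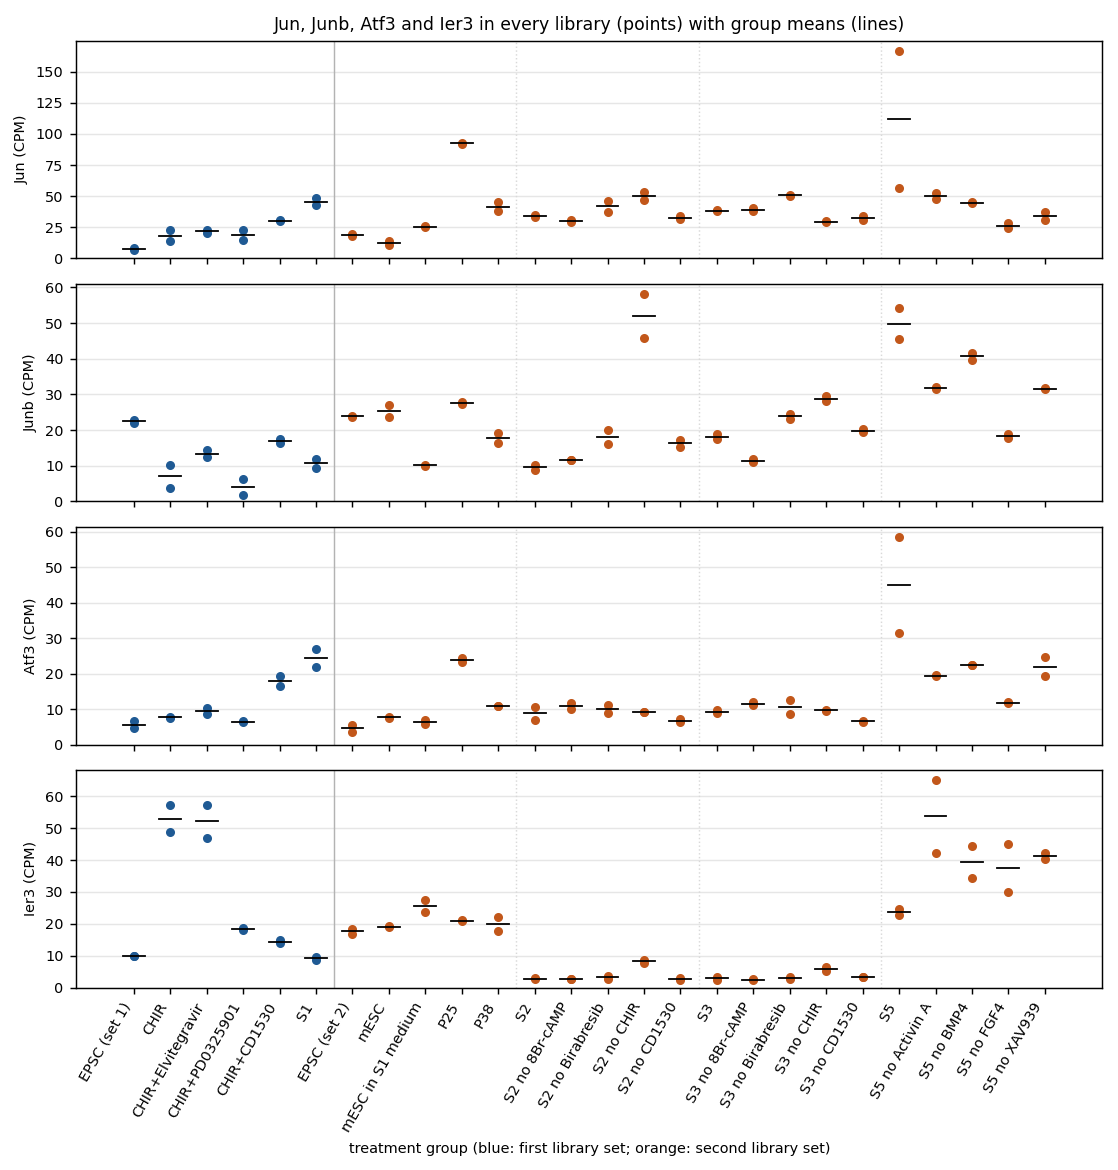
Level of Jun, Junb, Atf3 and Ier3 (CPM, linear axes from 0) in each of the 52 libraries, by treatment group; points are libraries, lines are group means, blue is the first library set and orange the second. Jun and Atf3 are high in S1 and P25, and in S5 1 library stands at 167 CPM of Jun and 58.6 CPM of Atf3; Ier3 is lowest in S2 and S3 groups.

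Against P25, S2 aggregates had less Jun, Junb, Atf3, Fos and Ier3 and more Egr1. Of 9 genes 1 rose and 5 fell, beside 16.1% (4.69% up, 11.4% down) of genes. Egr1 read 22.1 and 22.5 CPM in S2, log2 fold change 3.32 (SE 0.29, adjusted p = 7.17e-12). Ier3 fell by 2.94 (SE 0.21, adjusted p = 5.07e-14), to 2.92 and 2.53 CPM. Jun, Junb and Atf3 fell by 1.44, 1.53 and 1.45 (SE 0.24, 0.26 and 0.21, adjusted p 9.72e-06, 8.33e-06 and 7.91e-07). Fos fell by 1.06 (SE 0.33, adjusted p = 0.0105), a call lost without P25 library 1 (adjusted p = 0.076) or S2 library 1 (adjusted p = 0.074). Fosb, at 0.115 and 0.055 CPM in S2, was not called (-2.34, SE 1.03, adjusted p = 0.0784), though it was with DESeq2 (adjusted p = 0.02) or no low-count filter (0.011). Hspa1a and Hspa1b fell here as well (log2 fold changes -1.44 and -1.16), and of the 11 ERK feedback genes Etv4 rose and 0 fell. Feeder fibroblast markers fell in 7 of 12, to sums of 319 and 306 CPM from 1350 and 1340 CPM. All 7 markers of the 2-cell stage fell, from sums of 243 and 246 CPM to 79.2 and 90.3 CPM, as did 6 of 8 trophectoderm markers, with 1 that rose, and 4 of 8 endoderm markers. Their part was not tested.

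The second day in the same medium brought the largest fold changes of Fos and Fosb among the 28 planned comparisons. From S2 to S3, 4 of 9 genes rose and 0 fell, beside 5.28% (1.90% up, 3.37% down) of genes; the members' median log2 fold change was 0.93 against 0. Fos read 1.69 and 1.87 CPM in S2 and 34.2 and 32.7 CPM in S3. The log2 fold change was 4.23 (SE 0.30, adjusted p = 1.27e-12). Fosb, a close relative of Fos with a longer-lived splice form in neurons, went from 0.115 and 0.055 CPM to 9.6 and 10.7 CPM, log2 fold change 6.86 (SE 0.76, adjusted p = 1.89e-08). Both S3 libraries lay far above both S2 libraries for these genes. In the S2 libraries 3 counts were 0.0859 and 0.0825 CPM, so Fosb was barely detected there and the size of its rise is imprecise.
Egr1 rose from 22.1 and 22.5 CPM to 66 and 60.9 CPM, log2 fold change 1.51 (SE 0.22, adjusted p = 2.78e-06). Ier2 rose from 106 and 113 CPM to 229 and 218 CPM, log2 fold change 1.03 (SE 0.12, adjusted p = 3.77e-08); being at the threshold, it was 0.98 without S2 library 1 and 0.99 without S3 library 1. Junb, at 18.8 and 17.6 CPM in S3, was just under the size asked (0.93, SE 0.25, adjusted p = 0.00754) and was called without S2 library 2 (1.02).
Jun (38.8 and 38 CPM in S3) and Atf3 (8.79 and 9.76 CPM) had log2 differences of 0.17 (SE 0.24) and 0.08 (SE 0.21). Few other early genes moved: of 40 tested, Ier5 (59.1 against 24 CPM) and Zfp36 (12.4 against 5.82 CPM) rose and Arc fell. Of 11 ERK feedback genes 0 rose and Etv4 fell. All 7 markers of the 2-cell stage fell, as did Hspa1a and Hspa1b, and 7 of 8 endoderm markers rose (sums of 657 and 628 CPM in S2, 964 and 1030 CPM in S3). Feeder fibroblast markers fell in 5 of 12, to sums of 204 and 226 CPM. The part of these in the members' changes was not tested.

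Leaving single agents out of the medium tested which of them these levels depend on. On the first day, without CHIR, 3 of 9 genes rose and 0 fell, beside 5.07% (2.86% up, 2.22% down) of genes. Junb rose most, from 8.93 and 10.2 CPM to 45.7 and 58.2 CPM, log2 fold change 2.44 (SE 0.26, adjusted p = 2.58e-09). Fos read 5.85 and 5.24 CPM, log2 fold change 1.64 (SE 0.30, adjusted p = 0.000112), and Ier3 rose by 1.59 (SE 0.21, adjusted p = 3.76e-07). Fosb, at 0.374 and 0.403 CPM, was called only with no low-count filter (2.17, adjusted p = 0.022). Of 40 other immediate early genes 10 rose and 0 fell, led by Fosl2 (133 against 14.1 CPM), and of 11 ERK feedback genes Dusp4, Dusp6 and Spry4 rose. Endoderm markers rose in 4 of 8 (sums of 1100 and 1160 CPM against 657 and 628 CPM) and trophectoderm markers in 4 of 8 with 1 that fell; their part was not tested.
Without 8Br-cAMP on the first day, 1 of 9 genes rose, beside 1.92% (0.643% up, 1.28% down) of genes: Fos, at 5.46 and 4.84 CPM (log2 fold change 1.52, SE 0.30, adjusted p = 0.000792). Egr1 read 44.1 and 43.8 CPM against 22.1 and 22.5 CPM, a log2 difference of 0.98 (SE 0.21, adjusted p = 0.0025) that became 1.01, and a call, with DESeq2 or other size factors. CREB response genes went the other way, with 5 of 12 lower and 0 higher, among them Nr4a1 (31.6 against 90.8 CPM), Pde4d and Sik1.
Without Birabresib or CD1530 on the first day 0 of 9 genes were called by edgeR, and 0 by DESeq2, beside 2.98% (2.85% up, 0.128% down) and 2.33% (0.718% up, 1.61% down) of genes; 3 and 5 members had an unadjusted p below 0.05. Egr1 without CD1530, at 39.5 and 43.4 CPM, lay above both S2 libraries (0.89, SE 0.21, adjusted p = 0.00596). Without Birabresib, Junb was 16.1 and 20.1 CPM (0.93, SE 0.25, adjusted p = 0.0157), and 1.07 and called when library 1 of that group was left out. Without CD1530, Fosb was called with no low-count filter (2.16, adjusted p = 0.035), at 0.453 and 0.323 CPM.

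**Figure D4:**
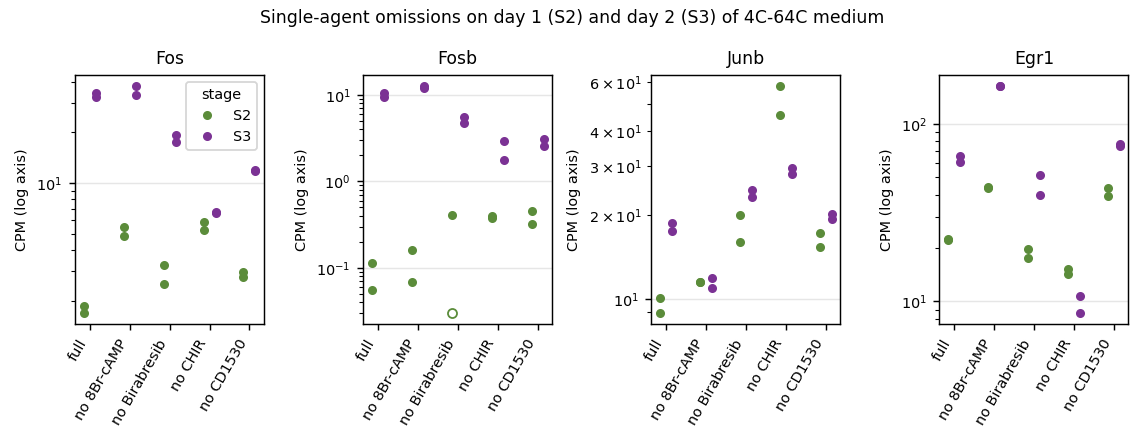
Fos, Fosb, Junb and Egr1 (CPM, log axes) in each library of S2 (green) and S3 (purple), with the complete medium and with 1 agent left out; the open circle marks 1 library with no Fosb read, drawn at the foot of the panel because a log axis has no 0. In S3, Fos without CHIR is at 6.65 and 6.71 CPM, against 34.2 and 32.7 CPM in complete medium, while in S2 it is higher without CHIR than in complete medium.

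On the second day Fos was lower, not higher, without CHIR. Each S3 omission was compared, as planned, with the mean of the other 3 omissions, and, as a comparison added after the data were seen, with complete S3. Without CHIR, Fos read 6.65 and 6.71 CPM, Fosb 2.96 and 1.75 CPM and Egr1 8.61 and 10.7 CPM. Against complete S3, at 34.2 and 32.7 CPM for Fos, the log2 fold changes were -2.32 for Fos (SE 0.26, adjusted p = 9.27e-09), -2.11 for Fosb (SE 0.51, adjusted p = 0.0018) and -2.72 for Egr1 (SE 0.23, adjusted p = 6.61e-12). No library overlapped. Ier3 rose by 1.01 (SE 0.21, adjusted p = 0.000272), to 5.07 and 6.34 CPM, so that 4 of 9 genes were called, beside 9.16% (5.04% up, 4.11% down) of genes. Leaving out library 2 of the group without CHIR took the calls for Fosb (adjusted p = 0.057) and Ier3 (0.84), and leaving out S3 library 2 that for Ier3 (0.80). Against the other omissions Fos, Fosb and Egr1 fell (-1.57, -1.27 and -3.10), 3 of 9 genes beside 8.96% (5.00% up, 3.97% down); the call for Fosb was lost without either library of the group. ERK feedback genes moved against Egr1: 4 of 11 were higher than in complete S3 and 0 lower, with Dusp6 at 111 against 29.1 CPM. Ier3 differed from the other omissions by 0.95, and by 1.11 or 1.03 with a call without library 1 of the group or library 2 of that without Birabresib. Endoderm markers were higher in 6 of 8 without CHIR, with sums of 3050 and 3010 CPM against 964 and 1030 CPM in complete S3, and their part was not tested.

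Leaving 8Br-cAMP out of the second day left Fos and Fosb high and raised Egr1. Egr1 read 163 and 164 CPM against 66 and 60.9 CPM in complete S3, log2 fold change 1.37 (SE 0.21, adjusted p = 4.88e-06), the 1 gene of 9 called, beside 6.63% (2.83% up, 3.80% down) of genes. Fos, at 37.8 and 33.5 CPM, differed from complete S3 by 0.09 (SE 0.25), and Fosb, at 12.8 and 12.1 CPM, by 0.30 (SE 0.48). Against the other 3 omissions, which were lower, Fos, Fosb and Egr1 rose by 1.66, 1.93 and 2.34 and Junb fell by 1.06 (SE 0.21, adjusted p = 0.000181), to 10.9 and 11.9 CPM: 4 of 9, beside 7.27% (2.82% up, 4.45% down). CREB response genes were lower again, 5 of 12 against complete S3 with 0 higher; Nr4a1 was 22.1 against 62.8 CPM. Of 40 other immediate early genes 11 were lower and 1 higher, among the lower Sgk1 (10.6 against 56.8 CPM), Arl4d and Klf6. Fosb, which the CREB list also holds, was not among those lower. Endoderm markers were lower in 6 of 8 (sums of 450 and 448 CPM against 964 and 1030 CPM) and pluripotency markers in 3 of 6 (1220 and 1260 CPM against 2570 and 2440 CPM); their part was not tested.
Without Birabresib, Fos read 17.5 and 19.2 CPM and Fosb 5.51 and 4.79 CPM, both below every complete S3 library, with log2 differences of -0.87 (SE 0.25, adjusted p = 0.0119) and -0.98 (SE 0.49, adjusted p = 0.178). Ier2 fell by 1.14 (SE 0.12, adjusted p = 7.05e-09), to 108 and 95.6 CPM, the 1 of 9 genes called, beside 6.21% (5.75% up, 0.459% down). The 2-cell markers were all higher there (7 of 7), with sums of 72.9 and 76.3 CPM against 11.2 and 11.4 CPM in complete S3, and their part was not tested. Without CD1530, Fos fell by 1.5 (SE 0.25, adjusted p = 2.75e-05), to 11.7 and 11.9 CPM, and Fosb fell by 1.83 (SE 0.50, adjusted p = 0.00751), to 3.14 and 2.57 CPM, 2 of 9 beside 5.79% (1.97% up, 3.82% down); the call for Fosb was lost without library 2 of the group (adjusted p = 0.089). Egr1 without CD1530 was 77.1 and 75.2 CPM, a log2 difference of 0.26 (SE 0.21). Against the other 3 omissions, neither the group without Birabresib nor that without CD1530 had a called member in edgeR or DESeq2 (0 of 9 each, beside 11.5% (10.7% up, 0.870% down) and 7.29% (1.54% up, 5.76% down)), with 2 and 5 members at an unadjusted p below 0.05.
Complete S3 against the mean of all 4 omissions gave 2 of 9 called, beside 2.65% (1.28% up, 1.37% down) of genes: Fos rose by 1.15 (SE 0.18, adjusted p = 1.62e-05) and Fosb by 1.15 (SE 0.36, adjusted p = 0.0216). The call for Fosb was lost without S3 library 1 (adjusted p = 0.1) or library 2 (adjusted p = 0.2). Ier2 lay at 229 and 218 CPM in complete S3, above all 8 omission libraries, and differed by 0.74 (SE 0.09, adjusted p = 8.32e-08).

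The change of each omission effect between the 2 days was tested as a difference of log2 fold changes, also added after the data were seen. For CHIR 5 of 9 genes passed, all more negative on the second day, beside 2.43% (1.28% up, 1.15% down) of genes: Fos by 3.96 (SE 0.40, adjusted p = 1.83e-08), Fosb by 4.27 (SE 1.06, adjusted p = 0.0107), Egr1 by 2.12 (SE 0.31, adjusted p = 2.27e-05), Junb by 1.78 (SE 0.35, adjusted p = 0.000923) and Ier2 by 1.13 (SE 0.17, adjusted p = 2.27e-05). Without S2 library 2 the difference for Fosb was not called (adjusted p = 0.075). For CD1530 the difference passed for Fos (-2.19, SE 0.40, adjusted p = 0.00105) and Fosb (-3.99, SE 1.04, adjusted p = 0.0278), 2 of 9 beside 0.962% (0.543% up, 0.419% down); that for Fosb was lost in 7 of the 8 fits that left out a library. For 8Br-cAMP and Birabresib it passed for Fos alone (-1.43 and -1.57, SE 0.39 and 0.40, adjusted p 0.023 and 0.0268), 1 of 9 each beside 1.90% (1.16% up, 0.742% down) and 0.870% (0.690% up, 0.180% down), and each was lost in 7 of 8 such fits. These tests share the S2 and S3 groups, and those for Fosb rest on its low level in S2.

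S5 aggregates had less Fos, Fosb, Egr1 and Ier2 and more Jun, Junb, Ier3 and Atf3 than S3. Of 9 genes 4 rose and 4 fell, beside 22.6% (14.1% up, 8.50% down) of genes. Ier3 rose by 3.06 (SE 0.20, adjusted p = 2.2e-15), from 3.32 and 2.37 CPM to 24.7 and 22.7 CPM. Junb rose by 1.45 (SE 0.24, adjusted p = 4.78e-06), to 45.5 and 54.2 CPM, and Atf3 by 2.28 (SE 0.21, adjusted p = 1.34e-11), to 31.6 and 58.6 CPM. Egr1 fell by 2.21 (SE 0.22, adjusted p = 1.29e-10), to 9.88 and 17.6 CPM. Fosb fell by 3.63 (SE 0.56, adjusted p = 1.24e-06) and Ier2 by 1.40 (SE 0.12, adjusted p = 2.13e-12). ERK feedback genes rose while Egr1 fell: 5 of 11 rose and 0 fell, with Dusp6 at 123 against 29.1 CPM. Endoderm markers rose in 6 of 8, to sums of 3820 and 4370 CPM from 964 and 1030 CPM, and feeder fibroblast markers fell in 10 of 12, to 64.4 and 63 CPM from 204 and 226 CPM. Thy1 was the marker of that list that rose (9.54 against 1.1 CPM), and S100a4 was at 0 in both S3 and both S5 libraries. Markers of the 2-cell stage rose in 7 of 7, to sums of 85.8 and 80.1 CPM from 11.2 and 11.4 CPM. Their part was not tested.
The 2 complete S5 libraries differed in Jun, Fos, Atf3 and Egr1. Jun was 56.7 CPM in library 1 and 167 CPM in library 2, Fos 9.55 and 21.3 CPM, Atf3 31.6 and 58.6 CPM and Egr1 9.88 and 17.6 CPM. Hspa1a (8.82 and 49.5 CPM) and Hspa1b (19 and 104 CPM) were higher in library 2 as well, while Ier2 (81 and 88.1 CPM), Ier3 and the summed endoderm markers differed little. Without S5 library 2 the rise of Jun over S3 was 0.56 (adjusted p = 0.017) and not called, and that of Atf3 was 1.77. Without library 1 the fall of Fos was -0.65 (adjusted p = 0.052).

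**Figure D5:**
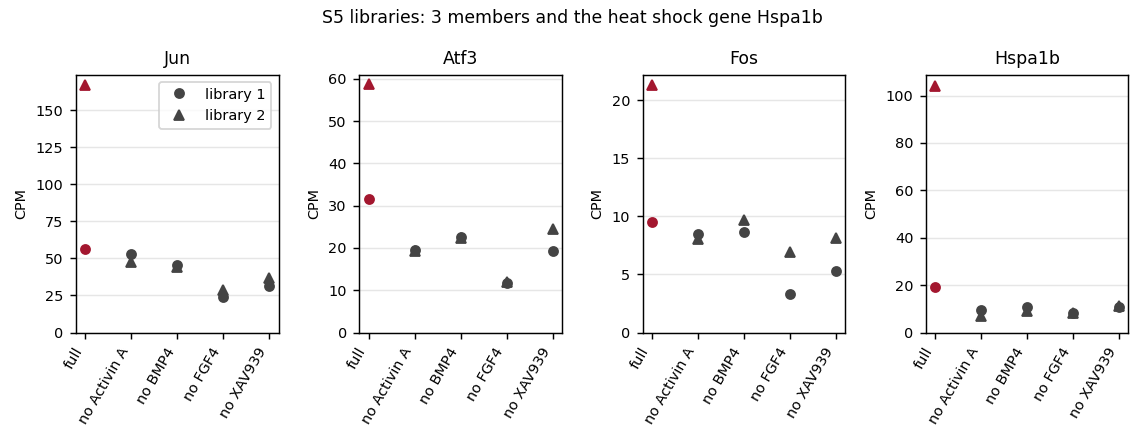
Jun, Atf3, Fos and the heat shock gene Hspa1b (CPM, linear axes from 0) in each S5 library, complete (red) or with 1 factor left out (grey); circles are library 1 and triangles library 2. Library 2 of complete S5 stands above all other libraries in each panel, with Jun at 167 CPM and Hspa1b at 104 CPM, and without FGF4 Atf3 is at 11.6 and 12 CPM.

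Leaving FGF4 out of the peri-implantation medium lowered Jun, Junb and Atf3 whichever complete S5 library was used. FGF4 signals through FGF receptors to ERK. Of 9 genes 4 fell and 0 rose, beside 4.65% (2.12% up, 2.53% down) of genes. Jun read 24.2 and 28.7 CPM, log2 fold change -2.08 (SE 0.25, adjusted p = 4.8e-08). Junb read 17.9 and 18.9 CPM (-1.44, SE 0.24, adjusted p = 2.84e-05). Atf3 read 11.6 and 12 CPM (-1.93, SE 0.20, adjusted p = 4.26e-09). Both libraries lay below both complete ones for these 3 genes, and without S5 library 2 they kept their calls at -1.10, -1.30 and -1.42 (adjusted p 5.5e-05, 0.0017 and 3.3e-06). Fos fell by 1.57 (SE 0.26, adjusted p = 2.5e-05), to 3.36 and 6.95 CPM, but by 0.88 and with no call without that library. Egr1 was 7.62 and 8.11 CPM (-0.80, SE 0.22, adjusted p = 0.0108), and was called only without S5 library 1 (-1.16). Of 11 ERK feedback genes Dusp4 fell (67.4 against 159 CPM), of 40 other immediate early genes 7 fell and 0 rose, such as Klf6 and Klf4, and Hspa1a, Hspa1b and Hspb1 fell. All 8 endoderm markers fell, to sums of 970 and 1090 CPM, and 7 of 8 trophectoderm markers, to 235 and 243 CPM from 661 and 598 CPM; their part was not tested.
The other 3 omissions gave calls for Jun and Atf3 that rest on S5 library 2. Without Activin A, Jun and Atf3 fell by 1.16 and 1.21 (SE 0.24 and 0.20, adjusted p 0.00202 and 8.95e-05) and Ier3 rose, 3 of 9 beside 1.12% (0.407% up, 0.714% down) of genes. Without BMP4 they fell by 1.32 and 1.01 (SE 0.24 and 0.20, adjusted p 0.00744 and 0.012), 2 of 9 beside 0.0559% (0.0160% up, 0.0399% down). Without XAV939, Fos, Jun and Atf3 fell by 1.20, 1.72 and 1.05 (SE 0.26, 0.24 and 0.20, adjusted p 0.00168, 5.56e-06 and 0.000362), 3 of 9 beside 2.14% (1.13% up, 1.01% down). When S5 library 2 was left out, Jun was at -0.18, -0.34 and -0.74 and Atf3 at -0.70, -0.49 and -0.53 in the 3 omissions, and Fos at -0.51 without XAV939, none of them called. Without S5 library 1, Fos was called in the groups lacking Activin A (-1.37) and BMP4 (-1.21), and Egr1 in those lacking Activin A (-1.08) and XAV939 (-1.10). Without library 2 of the group lacking Activin A, Jun was at -1.08 (adjusted p = 0.066); without either BMP4-free library neither Jun nor Atf3 was called (adjusted p 0.15 to 0.21); and without library 1 of the XAV939-free group Fos and Atf3 were at -0.92 and -0.88.
Ier3 without Activin A read 42.3 and 65.2 CPM against 24.7 and 22.7 CPM in complete S5, log2 fold change 1.18 (SE 0.17, adjusted p = 1.47e-05), and 1.12 without S5 library 2. Without library 2 of its own group it was 0.84 and not called. Ier3 was above both complete libraries in all 8 omission libraries, from 29.9 CPM up. Endoderm markers rose in 2 of 8 without Activin A, to sums of 7480 and 6910 CPM, and fell in all 8 without FGF4; their part was not tested.

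Across the 20 groups of the second set, the members fell into a few likenesses, given as Pearson correlations of mean log2 CPM per group, as a description; the groups share cell sources and media. Egr1 and Ier2 had r = 0.861, Fos and Fosb 0.811 and Jun and Atf3 0.732. Ier3 ran against Egr1 (-0.677) and Ier2 (-0.647), and Fosl1 against Fos (-0.58). Among all tested genes, those most like Fos included Fosb, Slc35f5, Gcfc2 and Atp6v1b2 (0.811 to 0.791), and those most like Jun were Specc1, Tmem9b, Dusp8, Ticam1 and Limd1 (0.895 to 0.83). Most like Egr1 were Zfp113, 4930556M19Rik, Ctbp1, Extl2 and Gm45902 (0.95 to 0.934), and most like Atf3 were Sdsl, Stx7, Vps37c, Arhgap18 and Paqr5 (0.916 to 0.857).
Egr2, which like Egr1 codes for a zinc finger factor, was detected in 24 libraries, at 0.177 CPM at most (complete S5, library 1). In the 28 libraries with no read, the limit that a count of 0 allows, 3 reads, was 0.0279 to 0.177 CPM, so no fold change is given for it.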

How the data were processed

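Polyadenylated RNA was sequenced in 52 libraries. The deposited table holds counts per gene, which the authors made with Trimmomatic 0.39, STAR 2.7.10b and featureCounts 2.0.6 on mm10, per the submitters' processing notes; no source used here gives the annotation or the strand setting. Libraries prepared by random priming of poly(A) RNA were read as pairs, per the labels' protocols.

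Groups were taken from the labels, with EPSC of the 2 library sets kept apart (26 means). Genes were filtered with filterByExpr, leaving 25056, scaled by TMM and fitted together with edgeR 4.0.16 (R 4.3.3, limma 3.58.1) in 28 planned comparisons and 8 added after the data were seen. Calls needed a Benjamini-Hochberg adjusted p below 0.05 over all tested genes and an absolute log2 fold change of at least 1. CPM were computed from the deposited counts. The script was tested on simulated data. Alternatives were DESeq2 1.42.0, RLE size factors, no filter, halved counts, separate fits of the first set, the other cell line groups and the aggregates, pooled EPSC, a replicate block and leaving out each library; the last kept the dispersion trend of all libraries and re-estimated scaling and quasi-likelihood spread. Library numbers were shared between groups, but nothing in the labels ties equal numbers together.

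All 10 members are named; of each other gene list up to 4 called genes with the smallest adjusted p were named in a comparison, beside its counts; the 5 genes most like Fos, Jun, Egr1 and Atf3 were those of highest Pearson r, of which 1 is not reported here. The members and lists were chosen with earlier results of these data known. Gene positions come from GENCODE (mm10) and upstream sequences from RefSeq (GRCm38.p6), where Ier2, Fosl1 and Egr1 were not used.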

Additional observations from a re-analysis of the deposited data

Results flagged for a closer look

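In untreated EPSC, the Fosb level of 1 of the 4 libraries stood apart, with a gap to its nearest neighbour of 0.885 of the whole range. The 4 values were 1.29, 1.28, 1.29 and 1.18 CPM, so the range itself was narrow, and chance marks about 1 in 20 such groups. The same check was made for every member and marked only Fosb, and the 4 libraries come from both library sets.

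The response to 2 days of totipotency medium differed between mESC and EPSC, by a test of the difference itself. The difference of log2 fold changes, mESC minus EPSC, was 4.90 for Egr1, 4.92 for Fosl1, 2.92 for Fosb, 1.98 for Ier2, -1.5 for Fos, -1.56 for Jun and -2.39 for Atf3. For Egr1, both treated mESC libraries lay above both untreated ones, and both S1 libraries lay below both EPSC libraries of their set. Jun rose in both lines, by 1.02 in mESC and 2.58 in EPSC. The value for Fosb was 0.41 without library 2 of treated mESC, and Egr1 was barely detected in untreated mESC. Line and library set cannot be told apart here.

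The effect of leaving an agent out differed between the first and the second day in the 4C-64C medium. For CHIR the difference, second day minus first, was -3.96 for Fos, -4.27 for Fosb, -1.78 for Junb, -2.12 for Egr1 and -1.13 for Ier2. For CD1530 it was -2.19 for Fos and -3.99 for Fosb. For Fos it was also -1.43 with 8Br-cAMP and -1.57 with Birabresib. These last differences of Fos, and that of Fosb with CD1530, were lost in most fits that left out a library. The Fosb differences rest on its low level in S2.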

How the results depend on the processing

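Of 410 counts of called members under an alternative, 368 stayed within 1.5 times the reported count, and 21 of 36 comparisons did so throughout. S2 without 8Br-cAMP gave 2 called members with DESeq2 and with RLE size factors (1 reported), and S2 without CD1530 gave 1 with no low-count filter (0 reported). Groups shared library numbers without a stated pairing: over 325 pairs of groups the correlation of deviations ran from -0.17 to 0.54 with a median of 0. With the replicate block, S5 without BMP4 had 1 called member (2 reported), and 104 of 105 called member results were kept. Leaving out 1 library at a time moved the counts to between 0 and 2 (Elvitegravir), 0 and 1 (S1 against CD1530), 1 and 2 (P38), 0 and 1 (S2 without Birabresib), 1 and 2 (S3 against its omissions), 1 and 5 (S5 without Activin A), 0 and 3 (without BMP4) and 0 and 4 (without XAV939). Against complete S3 they were 2 to 4 without CHIR and 1 to 2 without CD1530, and the changes between days gave 0 to 1 (8Br-cAMP), 0 to 1 (Birabresib) and 1 to 2 (CD1530). In all, 457 of 524 calls were kept; 1 value reversed, Junb under PD0325901, at 0.24 without CHIR library 1 (-0.70 reported; -1.91 to 0.24 over the libraries left out).

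Counts over all genes moved as follows: CHIR against EPSC from 4673 to 7564 with pooled EPSC; Elvitegravir from 2 to 142 (no filter), 43 (DESeq2), 0 (halved counts, first set alone, or the second CHIR and PD0325901 libraries left out) and up to 1562 (1 library left out); P38 from 85 to 138 (halved), 165 (cell line groups alone), 45 and 52 (without P25 library 1 or 2). S5 without BMP4 went from 14 to 36 (no filter), 22 (DESeq2) and between 0 and 108 (1 library left out), and the change between days for Birabresib from 218 to 341 (no filter), 342 (DESeq2), 101 (without library 2 of S3 lacking Birabresib), 120 (S3 library 2) and 130 (S2 library 1). With 1 library left out, S2 without Birabresib went from 746 to 366 and 437 (S2 library 1 or 2), S3 against its omissions from 664 to 385 (S3 library 2), and S5 without XAV939 from 536 to 182 (S5 library 2), 310 and 991 (its own library 1 or 2). The change between days for CD1530 went from 241 to 122 (S3 library 2), 145 and 155 (either library of S3 lacking CD1530), 146 (S2 library 1) and 123 (library 1 of S2 lacking CD1530). The cause was not tested. By reads over all libraries, Egr2 (83), Fosl1 (1354) and Fosb (3615) were the members most limited by depth.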

Other observations

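Stress and p53 genes moved beside the members at the later stages. From P25 to S2, 6 of the 10 genes of the integrated stress response went down and 1 rose, while from S3 to S5 6 rose and 1 fell, the stages at which Atf3 fell and rose. Of 10 p53 target genes 5 fell from S3 to S5 and 0 rose. In S1 against EPSC 4 of the 10 stress response genes were lower and 0 higher, although Atf3 rose there.

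Leaving CD1530 out raised ERK feedback genes on both days, 5 of 11 against S2 and 5 of 11 against complete S3, with 0 lower in each. Egr1 was not called in either, with differences under the size asked, but lay above both libraries of the complete medium on each day.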
